A study of Mus musculus with 8 samples.

Results

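The genes described here are 9 proneural and neuronal commitment factors, namely Neurog1, Neurog2, Neurod1, Neurod4, Nhlh1, Insm1, Myt1, Btg2 and Sox11, out of 21069 features in the day 5 files and 19011 genes in the day 0 table. They were taken by gene symbol and not by a cut on measured values, but the set was chosen with earlier results of these data known. All 9 have a row at both days. The libraries are 8 RNA-seq profiles of 46C, a mouse embryonic stem cell line whose strain the labels give as C57BL/6 and which carries a reporter of the neural gene Sox1. The 4 lines were wild type (WT), LincNDIME_KO (KO), and cells carrying either a control short hairpin (shCtrl) or a short hairpin directed at the transcription factor gene Mef2c (shMef2c). NDIME is a noncoding RNA that the study's title joins with Mef2c in neural differentiation. At day 0 the cells grew on irradiated mouse fibroblasts with serum and the cytokine LIF. At day 5 they had been aggregated in suspension in a serum replacement medium and are labelled as neural progenitor cells. Each line and day is 1 library, and the sources used here do not give how many clones, cultures or hairpins a line stands for.

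Proneural factors are basic helix-loop-helix (bHLH) proteins that pair with E proteins, bind the E-box sequence and turn on genes that take a dividing progenitor out of the cell cycle and into neuronal differentiation. Neurogenins act early in this cascade and switch on later bHLH factors of the Neurod and Nhlh families, while Notch signalling through Hes proteins holds the neighbouring cells back as progenitors. Insm1 and Myt1 are zinc finger proteins switched on in newly committed cells, Btg2 is an antiproliferative gene of neurogenic divisions that is also a target of p53, and Sox11 is a transcription factor of committed precursors and young neurons.

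Estimated reads per library ranged from 25996204 to 26834802 at day 5 and from 20312032 to 20883674 at day 0. Mef2c, the hairpin's target, held a share of reads in shMef2c that was 0.238 times that in shCtrl at day 5 (95% interval 0.138 to 0.392), and in KO 0.224 times that in WT (0.124 to 0.382). At day 0 the ratio of shMef2c to shCtrl was 2.21 (1.27 to 3.95), against the label, so that culture is called the library labelled shMef2c. Intervals are exact Clopper-Pearson intervals on ratios of read shares and cover counting error only. There are no replicates, so no p-value is given and differences between cultures are not part of any interval. Log2 ratios were taken on FPKM (or RPKM at day 0) plus 1, which makes the ratios of scarce genes smaller. A gene counts as measured where the pair's mean is at least 1, and as higher or lower where that scale differs 2-fold or more. In these bulk samples, fewer cells that express a gene and less RNA per cell cannot be told apart.

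All 9 genes were measured in the 3 main day 5 comparisons, although several passed through the control library alone. In KO over WT, 4 of the 9 were lower (Neurog1, Neurog2, Neurod4 and Insm1), where 3.26% of all measured features were lower. Neurog2 was under 1 FPKM in KO and passed through WT alone, so it could not be called higher. Neurod1 was higher, at exactly the 2-fold limit, where 4.05% of features were higher. In shMef2c over shCtrl, 8 of the 9 were lower, all except Btg2, where 4.78% of features were lower. None was higher there, where 4.49% of features were. Of the genes called lower, all but Sox11 were under 1 FPKM in shMef2c and passed the minimum through shCtrl alone. They could therefore be called lower but not higher, and the count carries that bias. Between the control libraries (shCtrl over WT), none passed the limit in either direction, where 0.272% of features were lower and 0.724% higher. The median log2 ratio of the 9 genes was -0.80 in KO over WT (0.0011 over all measured features), -2.32 in shMef2c over shCtrl (-0.05) and 0.42 in shCtrl over WT (0.02).

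**Figure D1:**
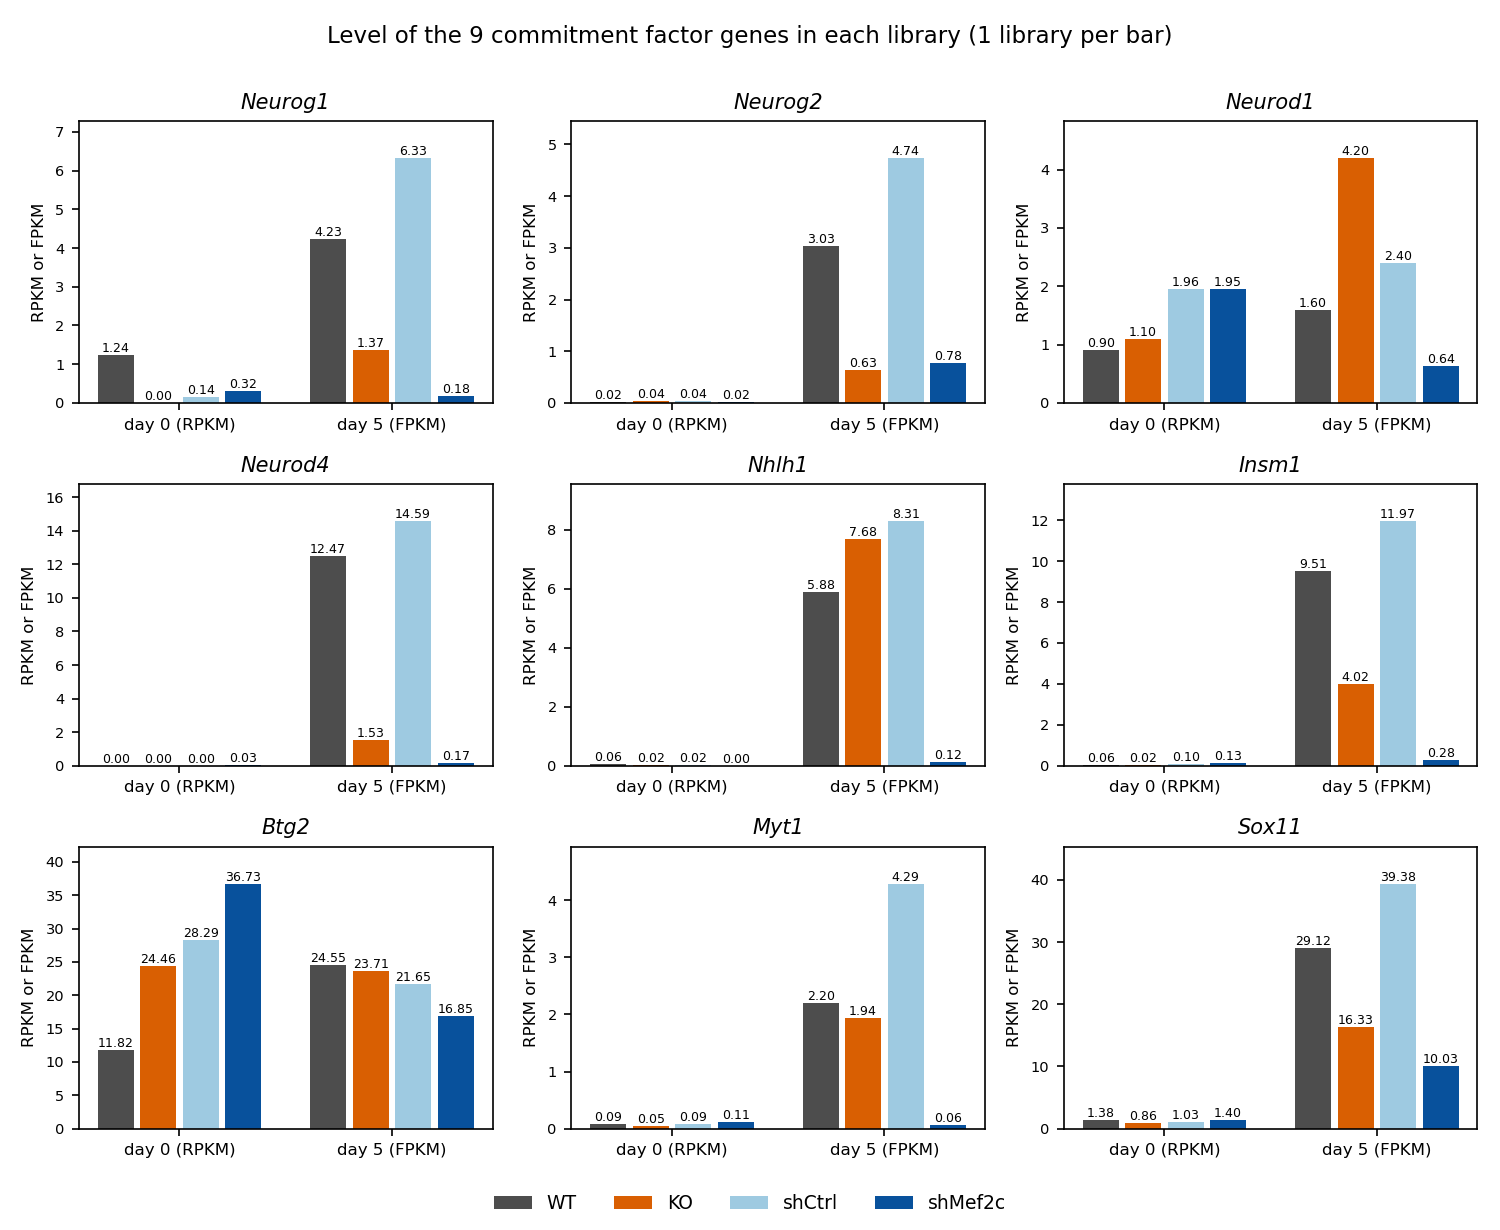
Level of each of the 9 genes in the 8 libraries, in RPKM at day 0 and FPKM at day 5, 1 bar per library with its value above it. At day 5 the shMef2c bar is the lowest for 8 genes, Neurog2 being the exception, while Neurod1 is highest in KO, and Btg2 alone is at 11.82 or more in all 8 libraries.

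The neurogenins, which start the cascade, were low in both perturbed lines at day 5. Neurog1 had 185 reads in WT (4.23 FPKM), 59 in KO (1.37 FPKM), 269 in shCtrl (6.33 FPKM) and 8 in shMef2c (0.18 FPKM). As a share of reads, KO held 0.323 times the WT level (0.237 to 0.435) and shMef2c 0.029 times the shCtrl level (0.0124 to 0.0581). Both control libraries thus lay above both perturbed ones, with shMef2c the lowest.

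Neurog2 had 176 reads in WT (3.03 FPKM), 36 in KO (0.63 FPKM), 268 in shCtrl (4.74 FPKM) and 45 in shMef2c (0.78 FPKM). The share was 0.207 times WT in KO (0.141 to 0.298) and 0.164 times shCtrl in shMef2c (0.117 to 0.226). Here KO and shMef2c lay side by side, and the interval of their ratio (0.804, from 0.504 to 1.27) includes 1. Neurog2 was therefore the more abundant neurogenin in shMef2c, on the FPKM scale, whereas Neurog1 was in the other 3 libraries.

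Neurod4, a bHLH factor that acts after the neurogenins, was the most abundant of the 5 bHLH genes per length in both control libraries, and it showed the widest gap in both perturbed lines. WT had 1113 reads (12.47 FPKM) and shCtrl 1266 (14.59 FPKM), against 134 in KO (1.53 FPKM) and 15 in shMef2c (0.17 FPKM). Its log2 ratio was -2.41 in KO over WT, and 0.171% of measured features had a lower one. Its log2 ratio was -3.74 in shMef2c over shCtrl, and 0.092% of features had a lower one. In read shares, KO held 0.122 times the WT level (0.101 to 0.146) and shMef2c 0.0116 times the shCtrl level (0.00646 to 0.0192).

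Neurod1, a differentiation factor of the same family, had the opposite order in KO. It had 104 reads in WT (1.60 FPKM), 269 in KO (4.20 FPKM), 151 in shCtrl (2.40 FPKM) and 41 in shMef2c (0.64 FPKM). KO was thus above both control libraries and shMef2c below both. The share in KO was 2.62 times that in WT (2.08 to 3.32) and 1.75 times that in shCtrl (1.43 to 2.15). Against shCtrl the log2 ratio was 0.61, short of the 2-fold limit. ShMef2c held 0.265 times the shCtrl share (0.183 to 0.377).

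Nhlh1, expressed in young post-mitotic neurons, was close to control level in KO and near absent in shMef2c. It had 383 reads in WT (5.88 FPKM), 494 in KO (7.68 FPKM), 526 in shCtrl (8.31 FPKM) and 8 in shMef2c (0.12 FPKM). KO lay between the control libraries, 1.31 times WT (1.14 to 1.5) and 0.922 times shCtrl (0.813 to 1.04) in read share. The ratio of shMef2c to shCtrl was 0.0149 (0.00638 to 0.0295).

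Summed over these 5 bHLH genes, the level was 27.21 FPKM in WT, 36.37 in shCtrl, 15.41 in KO and 1.89 in shMef2c. The make-up differed as well as the sum. Neurod4 made up 45.8% of the sum in WT and 40.1% in shCtrl, but 9.93% in KO. Nhlh1 made up 21.6% and 22.8% in the control libraries and 49.8% in KO, and Neurod1 made up 5.88% and 6.6% there and 27.3% in KO. In shMef2c, Neurog2 (41.3%) and Neurod1 (33.9%) made up most of a small remainder.

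**Figure D2:**
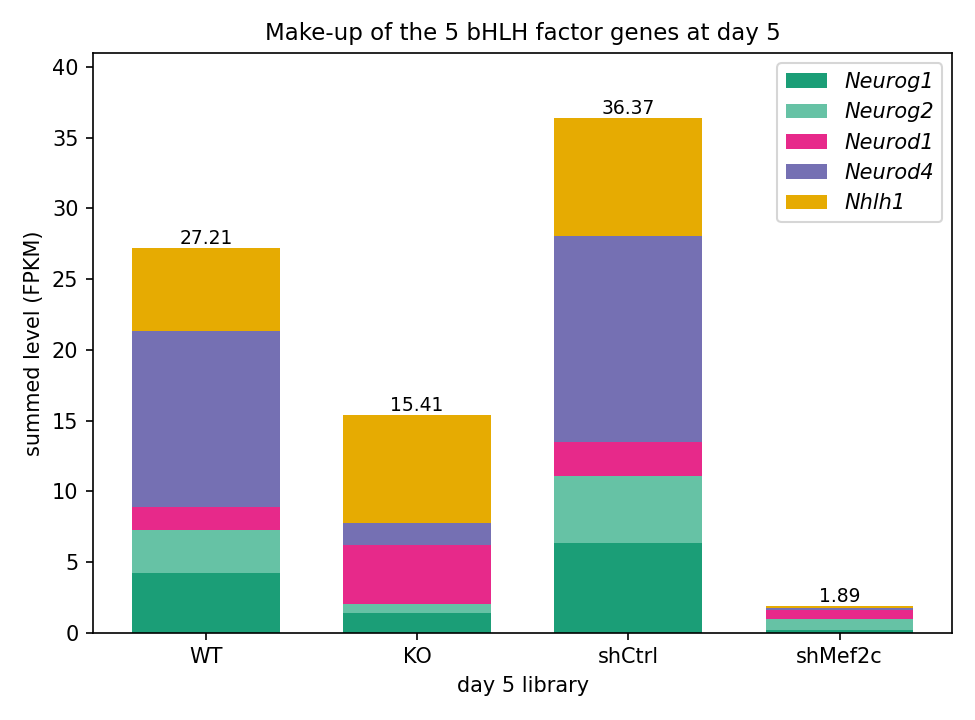
Summed FPKM of the 5 bHLH genes in each day 5 library, stacked by gene, with the sum above each bar. The KO bar (15.41) is mostly Nhlh1 and Neurod1, while Neurod4 is the largest block in WT (27.21) and shCtrl (36.37), and the shMef2c bar reaches 1.89.

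The promoters of Neurod4 and Neurog2, the bHLH genes with the lowest KO over WT ratios, are shown beside those of Neurod1 and Nhlh1, which were not lower in KO, to give the sequence context of genes that diverge in the same culture. Each is the 250 bases before the RefSeq start site (GRCm38.p6), 5′ to 3′ on the gene's strand, with matches to the E-box CANNTG or the N-box CACNAG, a site bound by Hes proteins, in capitals (both strands searched).
Neurod4, chr10:130280255-130280504, minus strand: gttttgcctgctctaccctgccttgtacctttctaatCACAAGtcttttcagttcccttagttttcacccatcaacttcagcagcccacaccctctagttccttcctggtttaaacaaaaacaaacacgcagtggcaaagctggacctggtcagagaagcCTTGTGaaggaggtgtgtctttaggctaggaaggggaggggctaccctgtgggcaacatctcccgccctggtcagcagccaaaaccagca
Neurog2, chr3:127632886-127633135, plus strand: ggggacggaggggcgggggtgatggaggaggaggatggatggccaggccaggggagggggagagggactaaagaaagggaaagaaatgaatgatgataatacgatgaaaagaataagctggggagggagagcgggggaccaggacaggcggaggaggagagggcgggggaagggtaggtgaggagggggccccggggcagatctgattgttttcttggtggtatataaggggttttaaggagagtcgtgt
Neurod1, chr2:79456637-79456886, minus strand: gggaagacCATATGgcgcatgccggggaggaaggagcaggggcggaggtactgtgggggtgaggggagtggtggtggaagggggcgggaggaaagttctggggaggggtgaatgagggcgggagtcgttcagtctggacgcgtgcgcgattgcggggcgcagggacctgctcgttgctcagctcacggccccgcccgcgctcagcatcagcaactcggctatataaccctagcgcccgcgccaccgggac
Nhlh1, chr1:172057597-172057846, minus strand: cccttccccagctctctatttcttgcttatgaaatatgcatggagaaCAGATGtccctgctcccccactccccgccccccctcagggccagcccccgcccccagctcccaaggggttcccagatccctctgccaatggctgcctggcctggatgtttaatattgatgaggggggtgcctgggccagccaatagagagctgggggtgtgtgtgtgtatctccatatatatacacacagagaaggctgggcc

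In these windows Neurod4 had 2 N-box matches, 213 and 90 bases before the start, and no E-box. Neurog2 had neither. Neurod1 had an E-box match of the form CATATG 242 bases before the start, and Nhlh1 had CAGATG 203 bases before it. The promoter table holds 8 of the 9 genes, all but Insm1. Counting all their start sites, an E-box was found in 5 of 11 windows (of Neurod1, Nhlh1, Myt1 and Sox11) and an N-box in 3 of 11 (of Neurod4 and Sox11). Over all 32851 promoters, 66.2% held an E-box, 14.4% its CAGATG form, which the E-box count includes, and 36.7% an N-box. These matches describe the letters of the windows and say nothing about binding.

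Insm1, a zinc finger repressor of newly committed neuronal and endocrine precursors, had 756 reads in WT (9.51 FPKM), 315 in KO (4.02 FPKM), 924 in shCtrl (11.97 FPKM) and 22 in shMef2c (0.28 FPKM). KO and shMef2c were both below both control libraries. The share in KO was 0.422 times that in WT (0.369 to 0.482), and in shMef2c 0.0233 times that in shCtrl (0.0145 to 0.0354). Because Insm1 and Neurod1 are also endocrine genes, 8 pancreatic endocrine markers were looked at, 6 of which have values at day 5. Among them, Ins2 was at most 0.29 FPKM, Pdx1 at most 0.29 and Pax4 at most 0.03 in any day 5 library. Isl1 and Sst, which neurons express too, stood at 7.35 and 5.24 FPKM in WT, 1.36 and 13.02 in KO, 13.55 and 10.71 in shCtrl, and 0.69 and 0.58 in shMef2c. Neurog3, the neurogenin of endocrine precursors, was at 0.87 FPKM in WT, 1.53 in KO, 0.97 in shCtrl and 0.56 in shMef2c.

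Myt1, a zinc finger repressor that counters Notch signalling in committed cells, separated the perturbations. It had 311 reads in WT (2.20 FPKM), 276 in KO (1.94 FPKM), 587 in shCtrl (4.29 FPKM) and 8 in shMef2c (0.06 FPKM). The interval of the KO to WT ratio includes 1 (0.899, from 0.762 to 1.06), and the control libraries themselves were 1.95-fold apart in read share (1.7 to 2.24). ShMef2c held 0.0133 times the shCtrl share (0.00572 to 0.0264). Against shCtrl, KO held 0.461 times the share (0.398 to 0.533), so whether KO is below control depends on the library it is set against.

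Sox11, the most abundant of the 9 genes per length in both control libraries at day 5, had 6553 reads in WT (29.12 FPKM), 3627 in KO (16.33 FPKM), 8592 in shCtrl (39.38 FPKM) and 2241 in shMef2c (10.03 FPKM). All 4 libraries were apart by more than counting error, in the order shCtrl, WT, KO, shMef2c. The share in KO was 0.561 times that in WT (0.538 to 0.584) and 0.414 times that in shCtrl (0.398 to 0.431), so the 2-fold limit was passed only against shCtrl. In shMef2c it was 0.255 times that in shCtrl (0.243 to 0.267).

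Btg2 differed least among the perturbed and control libraries. It had 1981 reads in WT (24.55 FPKM), 1888 in KO (23.71 FPKM), 1696 in shCtrl (21.65 FPKM) and 1350 in shMef2c (16.85 FPKM). KO was 0.965 times WT (0.906 to 1.03) and 1.09 times shCtrl (1.02 to 1.17) in read share. ShMef2c was lowest, at 0.777 times shCtrl (0.723 to 0.836). In KO and shMef2c, Btg2 thus had the highest level of the 9 genes, above Sox11.

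**Figure D3:**
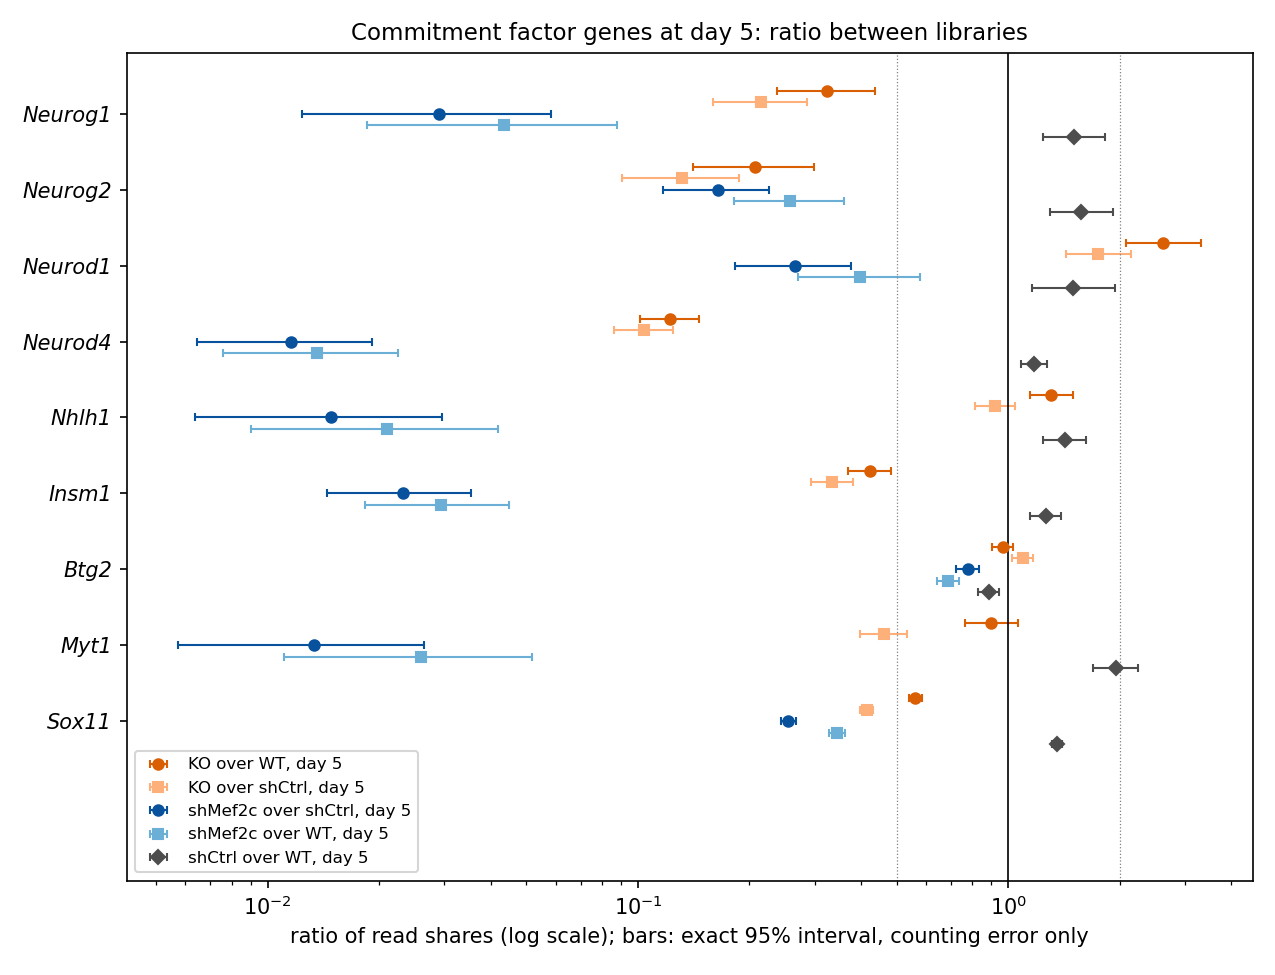
Ratio of read shares between day 5 libraries for each gene, on a log axis, with exact 95% intervals for counting error and dotted lines at 0.5 and 2. The shMef2c points of Neurod4, Nhlh1, Insm1, Myt1 and Neurog1 lie far left of the KO points, whereas for Neurog2 the points lie together and for Neurod1 they fall on opposite sides of 1.

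With both control libraries required, 4 genes stayed lower in KO (Neurog1, Neurog2, Neurod4 and Insm1), where 2.66% of features did, and 7 in shMef2c, all but Neurod1 and Btg2, where 2.81% did. Set against the control of the other pair, 5 of the 9 were lower in KO over shCtrl (5.52% of features) and 7 in shMef2c over WT (3.22%). The shMef2c counts carry the same bias as in shMef2c over shCtrl. The perturbed libraries were also compared directly. Of 6 genes measured in that pair, 4 were higher in KO than in shMef2c (Neurod1, Nhlh1, Insm1 and Myt1), where 2.36% of features were higher. These 4 were at 0.64, 0.12, 0.28 and 0.06 FPKM in shMef2c and passed the minimum through KO alone. They could therefore be called higher but not lower, and the count carries that bias. Nhlh1 was furthest apart, with 494 against 8 reads and a read share ratio of 62 (31.2 to 144). Neurog1, Neurog2 and Neurod4 were under the minimum in that pair.

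At day 0 most of the 9 genes were near absent, and 3 were measured (Neurod1, Btg2 and Sox11). Neurog2, Neurod4, Nhlh1, Insm1 and Myt1 were at 0.13 RPKM or less in every library. Neurod4 had 0 reads in WT, KO and shCtrl, which allows a share of up to 0.148 CPM (counts scaled to a common library size), and 2 reads in the library labelled shMef2c. Day 0 and day 5 values come from tables normalized separately, so levels are set side by side with no call. Sox11 stood at 1.38 RPKM in WT, 0.86 in KO, 1.03 in shCtrl and 1.40 in the library labelled shMef2c, all below the lowest day 5 level of 10.03 FPKM.

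Neurog1 was detected at day 0 in WT, at 1.24 RPKM (43 reads), against 0 reads in KO, 5 in shCtrl and 11 in the library labelled shMef2c. KO thus held at most 0.0921 times the WT share. The shCtrl share was 0.117 times that of WT (0.0361 to 0.295), so the control libraries differed too.

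Neurod1 already had reads in every day 0 library, 47 in WT (0.90 RPKM), 56 in KO (1.10), 102 in shCtrl (1.96) and 101 in the library labelled shMef2c (1.95). The hairpin lines were the higher pair. Set beside these with no call, the day 5 levels were 1.60 FPKM in WT, 4.20 in KO, 2.40 in shCtrl and 0.64 in shMef2c.

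Btg2 was already abundant at day 0, where WT stood apart as the lowest library. WT had 765 reads (11.82 RPKM), KO 1540 (24.46 RPKM), shCtrl 1822 (28.29 RPKM) and the library labelled shMef2c 2357 (36.73 RPKM). The share in KO was 2.07 times that in WT (1.9 to 2.26), and in shCtrl 2.39 times (2.2 to 2.61). With the pseudocount, shCtrl over WT passed the 2-fold limit (log2 ratio 1.19), where 0.755% of features were higher, and KO over WT just missed it (0.99). In KO over WT and in shMef2c over shCtrl at day 0, none of the 3 measured genes was called, where 2.93% and 0.231% of features were called in either direction.

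Over 15 other cell cycle exit genes and p53 targets at day 0, the median log2 ratio of shCtrl over WT was 0.71. Among them, 4 were higher in shCtrl (0.755% of features) and none was lower. These were Bbc3 and Pmaip1, which promote cell death (5.63 and 3.17 RPKM in WT against 15.17 and 8.51 in shCtrl), the stress gene Trp53inp1 (27.33 against 58.71) and Phlda3, an inhibitor of Akt (15.83 against 40.31). In KO over WT the median was 0.56, and 3 of the 15 ratios were below 0. There, 1 of 15 was higher and none lower, beside 162 and 190 of 12002 features. Fibroblast feeder markers summed to 204.69 RPKM in WT, 190.5 in KO, 210.82 in shCtrl and 345.93 in the library labelled shMef2c, with all 8 detected in each. Their part in the day 0 levels was not tested.

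The other proneural and differentiation bHLH genes did not all follow the 9. Of 17, 11 were measured in KO over WT, with a median log2 ratio of 0.35. Among them, 2 were higher and 3 lower (4.05% and 3.26% of features). Olig3, a patterning factor of the dorsal neural tube, stood at 3.62 in WT and 0.85 in KO. Olig1, a factor of the oligodendrocyte lineage, was higher in KO, at 2.96 against 0.11 in WT. Of the 8 measured in shMef2c over shCtrl, 1 was higher and 4 lower (4.49% and 4.78% of features), with a median of -0.73. Nhlh2, the close relative of Nhlh1, stood at 5.43 FPKM in WT, 2.59 in KO, 13.07 in shCtrl and 0.10 in shMef2c, and Bhlhe22 stood at 4.01 in shCtrl and 0.52 in shMef2c.

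The E proteins with which proneural factors pair were abundant in every day 5 library. Tcf12 stood at 76.32 FPKM in WT, 65.03 in shCtrl, 32.06 in KO and 31.04 in shMef2c. It was the 1 of 3 lower in KO over WT (3.26% of features) and in shMef2c over shCtrl (4.78%). Tcf3 ranged from 61.37 to 76.89 FPKM and Tcf4 from 7.16 to 11.05. Among 10 relatives of the 9 genes, 7 were measured in each comparison. St18, a zinc finger gene of the Myt1 family, was lower in both, at 2.69 FPKM in WT, 0.73 in KO, 4.16 in shCtrl and 0.02 in shMef2c. Sox4, the close relative of Sox11, stood at 60.18, 54.55, 80.49 and 40.22 FPKM in the same order. Btg1 ranged from 11.74 to 16.33 FPKM. Btg3 stood at 5.13 in shMef2c and has no line in the shCtrl file, where it was set to 0, so its call as higher rests on that value.

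Of 20 genes known to act downstream of neurogenins, 19 were measured. In KO over WT, 3 were lower and none higher (3.26% and 4.05% of features), with a median log2 ratio of -0.61. They were Mfng, a modifier of Notch receptors (16.28 FPKM in WT, 6.22 in KO), Hes6, which counters Hes1 (38.84 and 17.29), and the Notch ligand gene Dll3 (12.49 and 5.56). Dll3 was already lower in KO at day 0, at 0.81 RPKM against 3.52 in WT. In KO over WT at day 0, 2 of 11 measured genes of this list were lower and none higher, with a median of -0.35. There, 190 of 12002 features were lower. At day 5, 13 were lower and none higher in shMef2c over shCtrl (4.78% and 4.49% of features), with a median of -1.53. The lowest were the neuronal RNA-binding protein genes Elavl4 (18.22 FPKM in shCtrl, 1.52 in shMef2c) and Elavl3 (12.34 and 1.11), and the microtubule gene Dcx (7.09 and 0.15). Dll1, the Notch ligand gene that neurogenins switch on, stood at 11.65 FPKM in WT, 5.45 in KO, 12.95 in shCtrl and 3.43 in shMef2c.

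Of 13 inhibitors of proneural factors measured in KO over WT, 2 were lower and none higher (median -0.76), and of 15 in shMef2c over shCtrl, 5 were lower and 1 higher (median -0.38). Hes5, a Notch effector of neural progenitors, stood at 23.32 FPKM in WT, 4.47 in KO, 36.04 in shCtrl and 0.57 in shMef2c. Hey1 stood at 14.26 in WT and 4.07 in KO. Id2 and Id4, which sequester E proteins, stood at 61.67 and 13.94 FPKM in shCtrl and 19.08 and 4.59 in shMef2c. Hes1 stood at 30.62 in WT, 17.64 in KO, 34.74 in shCtrl and 34.07 in shMef2c. The inhibitor called higher was Hes7, at 0.52 FPKM in shCtrl and 2.29 in shMef2c. Rest, a repressor of neuronal genes, was at 7.01 FPKM in WT and 13.28 in KO, and at 6.69 in shCtrl and 12.97 in shMef2c, short of the limit in both pairs. The shares of features lower (3.26% and 4.78%) and higher (4.05% and 4.49%) apply here as well.

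Of 18 post-mitotic neuron transcription factors measured in KO over WT, 6 were lower and 1 higher (3.26% and 4.05% of features). The median was -0.22. Phox2a, which specifies noradrenergic and cranial motor neurons, stood at 8.42 FPKM in WT and 0.64 in KO. Lhx9, a factor of other brain neurons, stood at 0.13 in WT and 3.53 in KO. In shMef2c over shCtrl, 10 of 16 were lower and 1 higher (4.78% and 4.49% of features), with a median of -1.72. The higher one was Eomes, which is also in the list of mesoderm markers. Pou3f3 stood at 17.08 FPKM in shCtrl and 0.75 in shMef2c, and Pou3f2 at 13.69 and 0.68. The 15 cell cycle exit genes and p53 targets had 1 higher and 1 lower at day 5 in each comparison. The shares of features given in this paragraph apply here as well. Medians were 0.20 (KO over WT) and 0.42 (shMef2c over shCtrl). Gadd45a, a stress gene, was the higher one in both. The lower one was Cdkn1b in KO over WT and Cdkn1c in shMef2c over shCtrl. Cdkn1c, a cell cycle inhibitor of differentiating cells, stood at 88.24 FPKM in WT, 59.76 in KO, 126.94 in shCtrl and 2.85 in shMef2c.

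**Figure D4:**
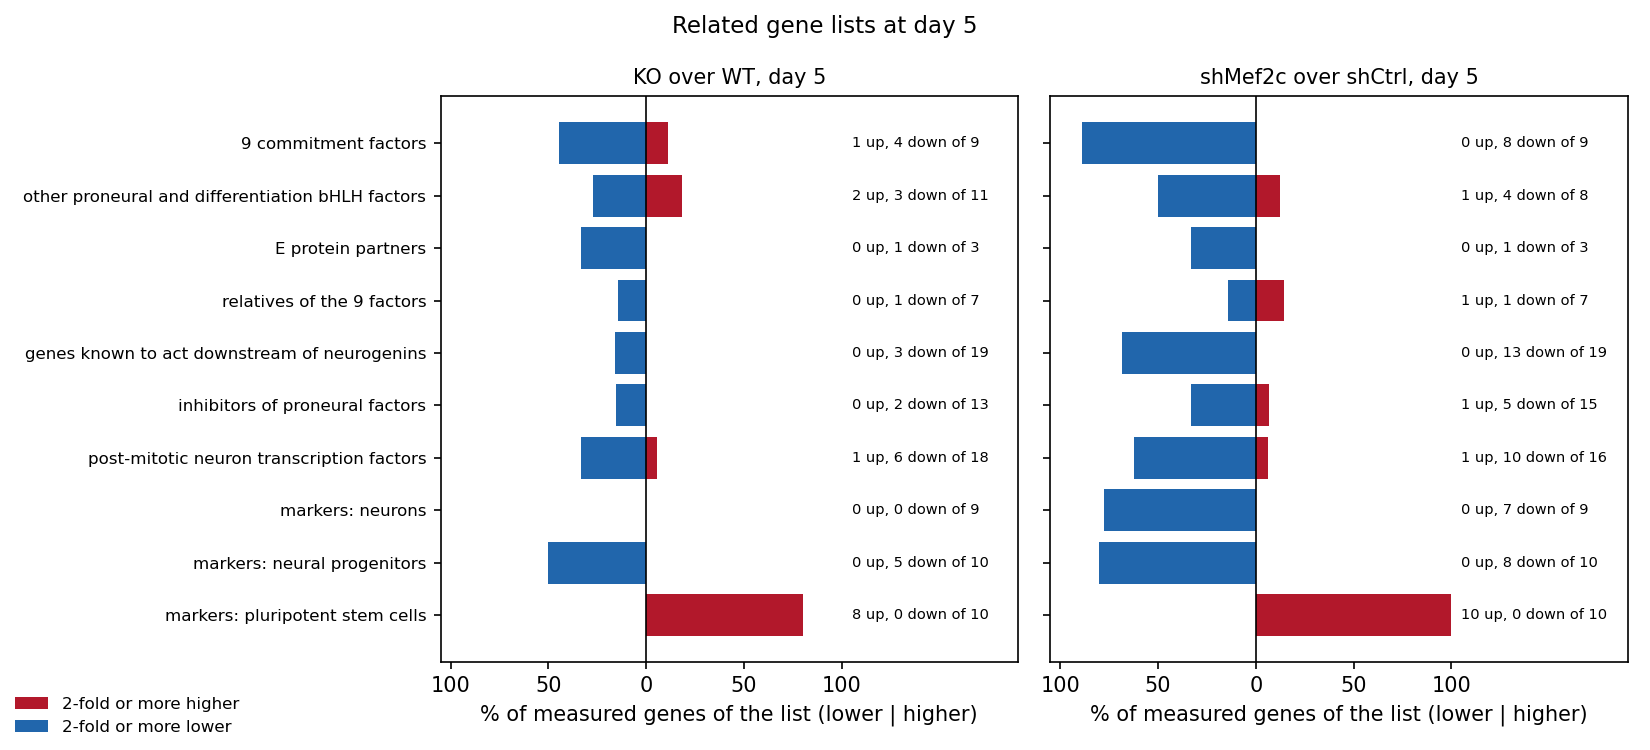
Share of measured genes of each list that were 2-fold or more lower (left of 0) or higher (right of 0) in KO over WT and in shMef2c over shCtrl at day 5, with the counts at the right. In shMef2c over shCtrl the bars of the 9 genes, of genes downstream of neurogenins and of neuron markers point left, while neuron markers have no call in KO over WT and pluripotency markers point right in both.

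Markers of cell identity were set beside these levels. Of 9 neuron markers measured, none passed the limit in KO over WT (median -0.33). In shMef2c over shCtrl, 7 were lower (median -2.33), where 4.78% of features were. In KO over shCtrl, however, 4 of 10 were lower (median -0.88), where 5.52% of features were. The 10 neuron markers summed to 277.73 FPKM in WT, 286.41 in KO, 377.34 in shCtrl and 129.78 in shMef2c. Tubb3 (108.99 FPKM in WT, 148.48 in KO) and Stmn2 (74.28 and 41.17) make up much of these sums. Both were present at day 0 too, at 48.07 and 110.68 RPKM in WT. The 10 neural progenitor markers summed to 769.81 FPKM in WT, 305.67 in KO, 802.16 in shCtrl and 271.23 in shMef2c. Of these markers, 5 of 10 were lower in KO (3.26% of features) and 8 of 10 in shMef2c (4.78%). Sox1 stood at 15.76 FPKM in WT, 12.05 in KO, 13.6 in shCtrl and 2.45 in shMef2c. Pax6 and Hes5 were near 0 in shMef2c, at 0.21 and 0.57 FPKM. Sox2, which stem cells share, stood at 118.17 there against 103.15 in shCtrl. Vim, Cdh2 and Msi1 stood at 81.12, 29.25 and 17.0 in shMef2c, against 267.36, 42.26 and 50.67 in shCtrl. Vim and Msi1 were among the markers called lower. Of the 10 neuron markers, 5 (Tubb3, Dcx, Stmn2, Elavl3 and Elavl4) are also in the list of genes downstream of neurogenins. The progenitor list shares Hes5 with the inhibitors, and the mesoderm list shares Eomes with the post-mitotic neuron transcription factors. These counts are therefore not independent.

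The 10 pluripotency markers summed to 749.64 FPKM in WT, 1957.87 in KO, 511.11 in shCtrl and 2473.36 in shMef2c. Of these, 8 of 10 were higher in KO (4.05% of features) and 10 of 10 in shMef2c (4.49%). The 10 visceral endoderm markers summed to 44.57 FPKM in WT, 129.5 in KO, 103.37 in shCtrl and 56.99 in shMef2c. Of 9 measured in KO over WT, 7 were higher and 1 lower, where 4.05% and 3.26% of features were. The lower one was Foxa2, at 30.38 FPKM in WT and 6.45 in KO. The 8 mesoderm markers summed to 47.18 FPKM in WT, 7.04 in KO, 45.61 in shCtrl and 131.26 in shMef2c. The gene T alone stood at 40.47, 0.35, 36.55 and 105.94 in the same order. Of 3 measured in KO over WT, only T was called, as lower. Of 4 measured in shMef2c over shCtrl, 3 were higher and none lower, where 4.49% and 4.78% of features were. The 6 neural crest markers summed to 9.96, 11.44, 9.34 and 8.94 FPKM in the same order. Fibroblast feeder markers summed to between 14.71 and 19.29 FPKM at day 5. The part of these other cells in the levels of the 9 genes was not tested.

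Across the 8 libraries, Neurod1 and Btg2 followed the others least. Their Pearson r with each of the other 7 genes ranged from 0.236 to 0.67 for Neurod1 and from -0.153 to 0.0678 for Btg2, while the other 7 genes correlated with each other at 0.817 to 0.983 (log2 values plus 1). These are descriptions over 8 points that share libraries and, within a day, a table. Of 1480 other genes that varied at day 5, 344 had an r of 0.9 or more with the mean profile of the 9. The 8 nearest were Abcd2, a peroxisomal transporter gene (r = 0.998), Ptprn2, a gene of dense-core secretory vesicles (0.997), the neural transcription factor gene Pou3f2 (0.995), the zinc finger gene Scrt2 (0.994), the endothelin receptor gene Ednrb (0.994), Ppp1r17 (0.993), the retinoic acid-degrading enzyme gene Cyp26b1 (0.993) and the RNA-binding protein gene Celf3 (0.993). Abcd2 stood at 3.10 FPKM in WT, 1.95 in KO, 3.98 in shCtrl and 0.57 in shMef2c. Over the 4 day 5 libraries alone, only Abcd2 of these 8 remained among the 8 nearest.

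Taken gene by gene, the nearest profile was Spag9 for Neurog1 (r = 0.992), Ppm1e for Neurog2 (0.997), Pou3f4 for Neurod4 (0.999), Ptprn2 for Insm1 (0.998), Dcx for Myt1 (0.996) and Tsc22d3 for Sox11 (0.999). Nhlh1 was nearest to Ebf3, a transcription factor gene of young neurons (0.995), which was likewise not lower in KO, at 4.20 FPKM in WT, 7.49 in KO, 6.00 in shCtrl and 0.25 in shMef2c. Neurod1 was nearest to the phospholipase gene Plcd1 (0.9), which stood at 13.2 FPKM in KO and between 5.03 and 6.38 in the other day 5 libraries. Btg2 had no close match, its nearest being Islr2 (0.8).

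The authors' deposited table of KO against WT lists 5 of the 9 genes among 2253, with log2 ratios of -1.63 for Neurog1, -2.27 for Neurog2, 1.39 for Neurod1, -3.03 for Neurod4 and -1.24 for Insm1. Their deposited table of shMef2c against shCtrl lists 8 among 2758, all but Btg2, from -6.42 for Neurod4 to -1.91 for Neurod1. These ratios carry no pseudocount of 1 and are larger in size than those above.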

How the data were processed

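The data are polyadenylated RNA profiles, 1 per group, grouped by the labels. For day 5 the authors deposited expected counts and FPKM per gene, per the file headers; features below 0.01 FPKM have no line and were set to 0. For day 0 the authors deposited 1 table that pairs RPKM with estimated counts, per the file headers. They also deposited day 5 comparison tables with log2 ratios and false discovery rates (adjusted p-values), per the file headers, made by a Poisson method per the labels. The submitters' processing notes name RSEM, Bowtie, Bowtie2, HISAT, HISAT2 and the build mm9, giving neither roles nor versions. The sources used here do not state whether strand was used in counting. By RefSeq, Myt1 overlaps 1 other gene, Gm18895, and the other 8 genes none.

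The 9 genes and the 15 related gene lists were chosen with earlier results of these data known. Log2 ratios used a pseudocount of 1 and a pair mean of 1 or more, with calls at 2-fold. Ratios of read shares were computed from the estimated counts, with 95% exact intervals (scipy 1.17.1). The scripts were tested on simulated data. Named are all 9 genes, and genes by Pearson r over 8 libraries (mean of 1 or more and SD of 0.5 or more at day 5, predicted and unnamed genes left out). From the lists, some but not all of the 3 largest ratios in each main day 5 comparison are named. Other named list genes were chosen after their values were seen. The values of 2 further list genes are not reported here. Promoters come from a RefSeq table of GRCm38.p6, a build other than mm9. Alternatives were a pseudocount of 0.1, no filter, a mean of 5 or more, a common total, TMM factors (edgeR 4.0.16), DESeq2 1.42.0 size factors, 1.5-fold and 4-fold rules, centring, the other control library, both control libraries (chosen after seeing the data) and the authors' tables. edgeR and DESeq2 gave scaling factors only, from counts rounded to whole numbers.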

Additional observations from a re-analysis of the deposited data

Results flagged for a closer look

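Neurod1 had ratios of opposite sign in the perturbed lines at day 5, with a log2 ratio of 1.00 in KO over WT and -1.05 in shMef2c over shCtrl. It was the only 1 of the 9 genes called higher in one pair and lower in the other. Against the other control library the direction was kept but neither ratio passed the 2-fold limit (0.61 in KO over shCtrl, -0.66 in shMef2c over WT), and centring on the median of all genes put the KO ratio just under it (0.9989). With 1 library per group the difference was not tested.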

How the results depend on the processing

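No paired analysis was possible because each group has 1 library, and for the same reason no library could be left out within a group. Calls were steady under most settings. Percentages here are shares of all measured features called in either direction under the same setting. In KO over WT at day 5, the 5 calls (7.31%) became 2 with a mean of 5 or more (5.6%), where 5 genes were measured. They became 1 at 4-fold (0.904%), and 4 when centred on the median of all genes (7.29%), where Neurod1 slips just under the limit. The median of -0.80 became -1.22 against shCtrl. In shMef2c over shCtrl, the 8 calls (9.26%) became 3 with a mean of 5 or more (6.89%), where 4 genes were measured. They became 5 at 4-fold (1.55%) and 7 against WT (7.21%). The median of -2.32 became -1.59 against WT and -4.52 with a pseudocount of 0.1. It was -3.07 with TMM factors and -3.08 with DESeq2 size factors. In shCtrl over WT at day 5, the count of 0 became 1 at 1.5-fold (5.26%). The median of 0.42 became 0.49 with a pseudocount of 0.1 and 0.36 with a mean of 5 or more. In KO over WT at day 0, the count of 0 became 1 in either direction. The call was higher (Btg2) with a pseudocount of 0.1 (5.45%) or a 1.5-fold rule (13%). It was lower (Neurog1) with no filter (2.02%), TMM factors (4.42%) or DESeq2 size factors (4.4%). In shCtrl over WT at day 0, the count of 1 became 2, both higher, with a pseudocount of 0.1 (2.57%) or a 1.5-fold rule (6.85%). With TMM (1.84%) or DESeq2 size factors (1.83%) it became 2, with 1 higher and 1 lower, and at 4-fold (0.0419%) it became 0. Where no construction is named, the cause was not tested. Of the single-gene ratios, 57 of 73 in KO over WT and 50 of 75 in shMef2c over shCtrl moved by less than counting error, and no called gene changed direction. Counts of 8 reads in shMef2c limit the precision of Neurog1, Nhlh1 and Myt1.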
